A study of Mus musculus with 6 samples.

Results

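Interferon-stimulated genes are the genes that cells switch on when interferon, a signal of infection, reaches its receptor. A list of 31 such genes was followed in mouse fibroblasts with the Delta9 allele of Lmna, which encodes the A-type lamins of the nuclear envelope. A gene was taken where a probe set of the array is annotated to that 1 gene symbol, and where several probe sets were, the brightest over all samples was used. This gave 29 of the 31 genes, among 18193 named genes in all. Isg15 had 1 probe set, which is annotated to a second symbol as well, and Ifi44 had 0, so neither was analysed here.

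The series holds 3 samples of Delta9 fibroblasts and 3 of wild-type (WT) fibroblasts from their siblings, all labelled as strain C57bl6X129S3/J, each on its own Affymetrix array. The cells were primary fibroblasts at passage 3, kept in serum-free medium over the last 72 hours. They are labelled adult, while the design describes them as post-natal, and neither gives the zygosity of the allele, the age in days, the sex or the number of animals. The p-values therefore measure the spread between these samples, which may in part be technical, and 3 arrays a group limit the precision.

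Type I interferon acts through a complex of STAT proteins and Irf9, which binds a promoter element called the ISRE. Interferon gamma acts through a STAT dimer that binds the GAS element, with Irf1 among its direct targets. The induced proteins sense viral nucleic acid, block viral translation and replication, or regulate the response itself, and in fibroblasts many of them are present at a low level without any infection. Damage to the nuclear envelope can expose DNA to a cytosolic sensor whose signal ends in the same genes, which is the background for reading them in a lamin allele.

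Promoters of 5 of the genes are printed here to show the element that interferon signalling is known to act through, from RefSeq on GRCm38.p6, as 120-base stretches on the strand of the gene. In the first 4, capitals mark matches to the core of the ISRE, searched on both strands as GAAA, any 2 bases and GAAA, so that it appears as TTTC, 2 bases and TTTC where the match is on the other strand. In Oas1a and Bst2 a pair of matches overlap and form 1 run of capitals. In Irf1, capitals mark the match to the core of the GAS element, TTCNNNGAA, which reads the same on both strands.
Ifit1, chr19:34640739-34640858, plus strand: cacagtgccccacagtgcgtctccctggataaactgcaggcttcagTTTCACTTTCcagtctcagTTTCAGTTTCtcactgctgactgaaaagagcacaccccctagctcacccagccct
Ifit3, chr19:34583335-34583454, plus strand: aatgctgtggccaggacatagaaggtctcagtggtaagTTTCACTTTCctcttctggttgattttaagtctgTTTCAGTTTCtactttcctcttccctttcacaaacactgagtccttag
Oas1a, chr5:120907478-120907597, minus strand: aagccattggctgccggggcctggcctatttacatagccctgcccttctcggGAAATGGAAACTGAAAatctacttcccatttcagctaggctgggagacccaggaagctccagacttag
Bst2, chr8:71537535-71537654, minus strand: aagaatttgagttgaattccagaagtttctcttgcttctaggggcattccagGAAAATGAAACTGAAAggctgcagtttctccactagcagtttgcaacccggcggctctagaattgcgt
Irf1, chr11:53769868-53769987, plus strand: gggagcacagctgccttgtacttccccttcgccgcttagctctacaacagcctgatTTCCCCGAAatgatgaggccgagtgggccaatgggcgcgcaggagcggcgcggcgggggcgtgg

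Of the 31 genes, 22 have an entry in that promoter table, which covers 250 bases before and 50 after each start site. The ISRE core was found in 9 of these 22 genes (Bst2, Ifih1, Ifit1, Ifit3, Isg15, Oas1a, Oas3, Rsad2 and Stat2), against 3.99% of all 27025 genes in the table. The GAS core was found in 6 of the 22 (Bst2, Ifi35, Ifit2, Irf1, Isg20 and Oas1a), against 9.55% of all genes. In Bst2 the GAS match ends on the first letters of the ISRE match. A match describes letters in a window and is not a test of binding. Ifit1 and Ifit3 carry the same pair of ISRE letters, TTTCACTTTC and TTTCAGTTTC, and in Ifit1 they begin 104 and 85 bases before the start site. Their array values are given below by gene.

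No member of the group passed the adjusted threshold. In the limma fit, adjusted after Benjamini and Hochberg across 18193 genes, 0 of the 29 had an adjusted p under 0.05. Of all genes, 0.0605% did, 0.0055% with higher and 0.055% with lower values. At an unadjusted p under 0.05 there were 7 of 29, where 10.6% of all genes had one: 6 with lower values in Delta9 (6.06% of all genes) and 1 with higher values (4.54% of all genes). The median difference, Delta9 minus WT on the log2 scale, was -0.09 over the members and -0.01 over all genes. The values of 19 members were lower in Delta9 and those of 10 were higher, where 53.2% of all genes had lower values. For 18 of the 29 the difference was smaller than 0.25 in either direction, as it was for 73.7% of all genes, and the 95% interval of the difference held 0 for 22 of the 29. A difference of more than 0.5 in size was seen for 6 members (Xaf1, Ifit1, Usp18, Oasl2, Parp14 and Irf7), and for 8.30% of all genes. The members also varied more within the groups. Their median SD was 0.27 in Delta9 and 0.19 in WT, against 0.16 over all genes in each group.

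The Delta9 and WT values did not overlap for 8 members: Ifit1, Oasl2, Irf7, Irf9, Ifi27 and Mx2 were lower in all 3 Delta9 samples (9.99% of all genes), and Irf1 and Cmpk2 were higher in all 3 (7.27% of all genes). In either direction this was 17.3% of all genes. The values of all 29 genes on the 6 arrays are shown in the plot of levels by gene.

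**Figure D1:**
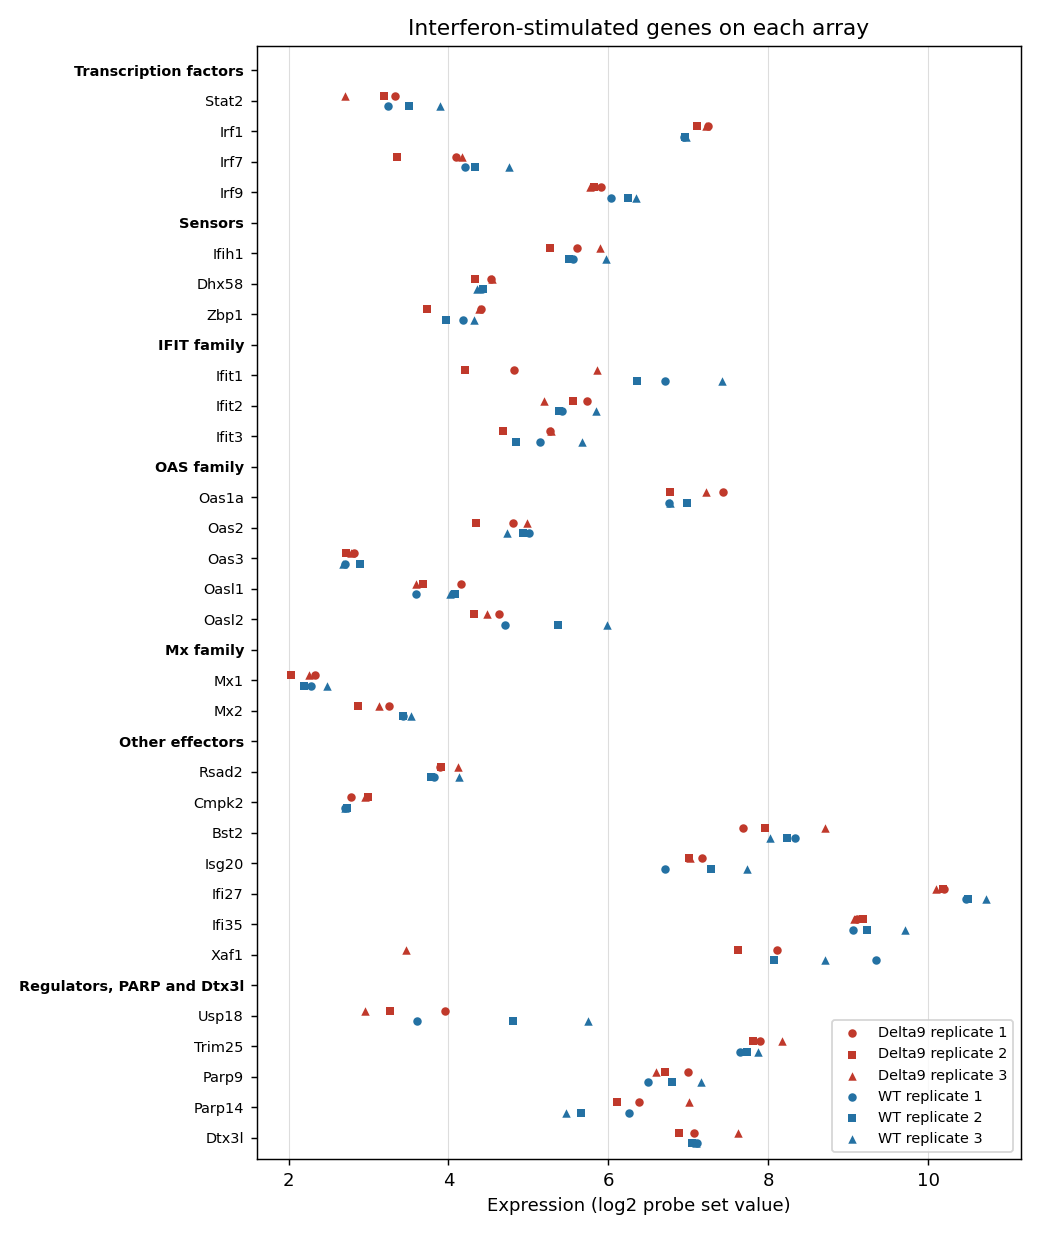
Log2 probe set value (x axis) of 29 interferon-stimulated genes, grouped by role (rows), on 3 Delta9 arrays (red, upper) and 3 WT arrays (blue, lower), with a symbol for each replicate. Ifit1 lies between 4.20 and 5.86 in Delta9 and between 6.36 and 7.42 in WT, while for most other genes the colours overlap. Levels of different genes come from different probe sets and are not comparable with each other.

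Among the transcription factors, Irf9, the DNA-binding subunit of the interferon complex, read 5.91, 5.82 and 5.77 in Delta9, against 6.03, 6.25 and 6.35 in WT. All 3 Delta9 samples were below all WT samples, by a narrow margin. The difference was -0.38 (SE 0.14), with an adjusted p of 0.428 (limma). Stat2, the STAT of that complex, was dim, at 2.70 to 3.33 in Delta9 and 3.24 to 3.89 in WT, with a difference of -0.47 (SE 0.22, 95% interval -0.99 to 0.04), or -0.29 without Delta9 replicate 3 and -0.30 without WT replicate 3. Irf7, which amplifies the production of type I interferon, read 4.10, 3.36 and 4.17 in Delta9, against 4.21, 4.34 and 4.76 in WT. Its groups were apart by a narrow margin, with Delta9 replicate 3 just under WT replicate 1, and the difference was -0.56 (SE 0.25, adjusted p 0.492, limma). It was -0.30 without Delta9 replicate 2.

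Irf1 went the other way. This factor, induced by interferon gamma and by inflammatory signals, read 7.25, 7.11 and 7.23 in Delta9 and 6.95, 6.95 and 6.97 in WT. The WT samples were nearly identical, with an SD of 0.01, and every Delta9 sample was above them. The difference was small, 0.24 (SE 0.12), or 1.18-fold, and missed the threshold with an adjusted p of 0.541 (limma).

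The sensors showed small differences. Ifih1, which encodes the sensor of long double-stranded RNA known as MDA5, lay between 5.26 and 5.89 in Delta9 and between 5.51 and 5.97 in WT, with a difference of -0.09 (SE 0.21). Dhx58, which encodes LGP2, a regulator of that sensor, differed by 0.07 (SE 0.12). Zbp1, a sensor of left-handed nucleic acid that can trigger cell death, differed by 0.01 (SE 0.21). The 95% intervals ran from -0.59 to 0.41 for Ifih1, from -0.22 to 0.36 for Dhx58 and from -0.48 to 0.51 for Zbp1, so changes of that size could not be told from 0 with these arrays.

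Ifit1 had the lowest p of the group. Its protein binds viral RNA that lacks the cap methylation of the host and blocks its translation. It read 4.82, 4.20 and 5.86 in Delta9, against 6.70, 6.36 and 7.42 in WT. The groups did not overlap, and Delta9 replicate 3 was the nearest to WT. Mean values were 4.96 ± 0.84 in Delta9 and 6.83 ± 0.54 in WT (SD, n = 3 each), a difference of -1.87 (SE 0.45, 95% interval -2.92 to -0.82), or 3.65-fold lower in Delta9. The unadjusted p was 0.00387, and the adjusted p over all genes was 0.248 (limma), so the gene did not pass. Only 0.297% of all genes had a larger difference in size.

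The relatives of Ifit1 in the same cluster on chromosome 19 did not show a difference of that size. Ifit2, which also binds RNA and restrains viral translation, lay between 5.20 and 5.73 in Delta9 and between 5.39 and 5.84 in WT, with a difference of -0.05 (SE 0.20, 95% interval -0.52 to 0.42). Ifit3, which stabilises the complex with Ifit1 in human cells, lay between 4.68 and 5.28 in Delta9 and between 4.84 and 5.67 in WT, with a difference of -0.15 (SE 0.26, 95% interval -0.77 to 0.47). Within an array, the log2 ratio of Ifit1 to Ifit3 was -0.45, -0.48 and 0.58 in Delta9, against 1.55, 1.52 and 1.74 in WT. This ratio separated the groups, with a difference of -1.72, and that of Ifit1 to Ifit2 did so with a difference of -1.82. The exact two-sided permutation test gave p = 0.1 for each, which is the smallest value that 3 samples against 3 allow. Adjusted over the 6 pairs of related genes compared in this way, which were chosen after their values were seen, it was 0.12 for both. No pair could reach a p under 0.05 by this test, so it decides nothing for any of the 6, here or below.

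In the 2'-5' oligoadenylate synthetase family, whose enzymes make the messenger that activates RNase L, Oasl2 stood apart. Oasl2 read 4.63, 4.31 and 4.49 in Delta9, against 4.71, 5.36 and 5.98 in WT. WT replicate 1 lay next to the Delta9 samples and WT replicate 3 was the highest. Its difference was -0.87 (SE 0.31), or 1.83-fold lower, with an adjusted p of 0.401 (limma), and -0.56 without WT replicate 3. The neighbouring paralog Oasl1, known in the mouse as a repressor of Irf7 translation, differed by -0.09 (SE 0.20). The log2 ratio of Oasl2 to Oasl1 was lower in 3 of 3 Delta9 samples, with a difference of -0.79 (exact permutation p = 0.1, or 0.12 over the 6 pairs).

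Oas1a, Oas2 and Oas3 were mixed. Oas1a lay between 6.77 and 7.43 in Delta9 and between 6.76 and 6.98 in WT, with a difference of 0.30 (SE 0.20) that was 0.16 without Delta9 replicate 1 and 0.49 without Delta9 replicate 2. Oas2 lay between 4.35 and 4.98 in Delta9 and between 4.73 and 5.01 in WT, with a difference of -0.18 (SE 0.19). The log2 ratio of Oas1a to Oas2 was higher in 3 of 3 Delta9 samples, with a difference of 0.48 (exact permutation p = 0.1, or 0.12 over the 6 pairs). Oas3 was among the dimmest members. It read 2.81, 2.71 and 2.78 in Delta9, against 2.71, 2.90 and 2.68 in WT, and differed by 0.01 (SE 0.09).

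The Mx genes encode dynamin-like GTPases that trap viral particles, and the RefSeq table lists both mouse genes as transcribed pseudogenes. Mx2 read 3.25, 2.87 and 3.13 in Delta9, against 3.43, 3.43 and 3.53 in WT. Every Delta9 sample was lower, with a difference of -0.38 (SE 0.12, adjusted p 0.372, limma). Mx1 was at the bottom of the scale, with 2.33, 2.03 and 2.26 in Delta9, against 2.29, 2.19 and 2.48 in WT. Its difference was -0.11 (SE 0.11), and the groups overlapped.

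Other effectors included the brightest probe sets of the group. Ifi27, a small membrane protein induced by type I interferon, read 10.20, 10.18 and 10.10 in Delta9, against 10.47, 10.50 and 10.72 in WT. The groups were clearly apart, and the spread within Delta9 was small, with an SD of 0.05. The difference was -0.40 (SE 0.11), or 1.32-fold lower, with an unadjusted p of 0.00801 and an adjusted p of 0.297 (limma). Its second probe set gave the same direction, with a difference of -0.27. Ifi35, which forms a cytoplasmic complex with another interferon-induced protein, read 9.11, 9.18 and 9.08 in Delta9, against 9.06, 9.24 and 9.71 in WT. WT replicate 3 alone lay above the rest, and the difference was -0.22 (SE 0.18), or -0.03 without that sample and -0.35 without WT replicate 1.

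Bst2, or tetherin, which holds budding virus on the cell surface, read 7.68, 7.96 and 8.71 in Delta9, against 8.34, 8.24 and 8.02 in WT. Both the lowest and the highest sample were Delta9, and the difference was -0.08 (SE 0.26). Isg20, an exonuclease that degrades viral RNA, lay between 7.01 and 7.18 in Delta9 and between 6.71 and 7.73 in WT, with a difference of -0.17 (SE 0.25). Rsad2, or viperin, an enzyme whose product stops viral RNA chains, lay between 3.89 and 4.12 in Delta9 and between 3.78 and 4.13 in WT, with a difference of 0.07 (SE 0.14). Its neighbour Cmpk2, a mitochondrial nucleotide kinase, was dim, at 2.78, 2.99 and 2.95 in Delta9, against 2.70, 2.73 and 2.71 in WT. All 3 Delta9 samples were above WT by a little, with a difference of 0.20 (SE 0.09, adjusted p 0.486, limma).

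Xaf1 had the largest difference of the group and also the largest spread. It encodes a zinc finger protein that antagonises inhibitors of apoptosis. On the brighter probe set it read 8.11, 7.62 and 3.47 in Delta9, against 9.35, 8.07 and 8.71 in WT. Delta9 replicate 3 stood far below the other 5 arrays, and the SD within Delta9 was 2.55, at the 99.95th percentile of all genes. The difference of -2.31 (SE 1.14, adjusted p 0.521, limma) became -0.85 without that sample. The other probe set read 7.31, 6.84 and 8.18 in Delta9, against 5.79, 7.28 and 7.74 in WT, with a difference of 0.51. On it, Delta9 replicate 3 was the highest of the 6 arrays and WT replicate 1 the lowest, the reverse of their order on the brighter probe set, so no direction is given for Xaf1.

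Of the regulators, Usp18 differed most. This protease removes Isg15 from proteins and restrains signalling at the type I receptor. It read 3.96, 3.27 and 2.96 in Delta9, against 3.61, 4.80 and 5.74 in WT. Delta9 replicate 1 was above WT replicate 1, so the groups overlapped, and WT replicate 3 was 4.39-fold above WT replicate 1. The difference was -1.32 (SE 0.52, 95% interval -2.55 to -0.09), or 2.50-fold lower, with an adjusted p of 0.442 (limma), and -0.81 without WT replicate 3. Trim25, a ubiquitin ligase that helps activate RNA sensing, lay between 7.81 and 8.17 in Delta9 and between 7.64 and 7.87 in WT, with a difference of 0.21 (SE 0.15), or 0.10 without Delta9 replicate 3.

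Parp9, Dtx3l and Parp14 are neighbours on chromosome 16. Dtx3l is a ubiquitin ligase that works as a partner of Parp9, and Parp14 is an ADP-ribosyltransferase. Parp14 read 6.38, 6.10 and 7.01 in Delta9, against 6.26, 5.65 and 5.47 in WT. It was the 1 member with higher values at an unadjusted p under 0.05, with a difference of 0.70 (SE 0.29, adjusted p 0.465, limma), although Delta9 replicate 2 lay below WT replicate 1. Without Delta9 replicate 3 the difference was 0.45. A dimmer probe set of Parp14 differed by -0.02. Parp9 differed by -0.05 (SE 0.21), and Dtx3l by 0.11 (SE 0.20) on the brighter probe set. The log2 ratio of Parp14 to Parp9 overlapped between the groups, with a difference of 0.75 (exact permutation p = 0.3, also 0.3 over the 6 pairs). With the brighter Dtx3l probe set, that of Parp14 to Dtx3l was higher in 3 of 3 Delta9 samples. Its difference was 0.59 (exact permutation p = 0.1, or 0.12 over the 6 pairs). On the other Dtx3l probe set, which the choice of 1 value per gene left out, every Delta9 sample was higher, with 6.77, 6.45 and 6.96, against 6.31, 6.28 and 6.25 in WT. With that probe set the ratio of Parp14 to Dtx3l overlapped between the groups. It was higher in WT replicate 1 (6.26 against 6.31) than in Delta9 replicate 1 (6.38 against 6.77).

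**Figure D2:**
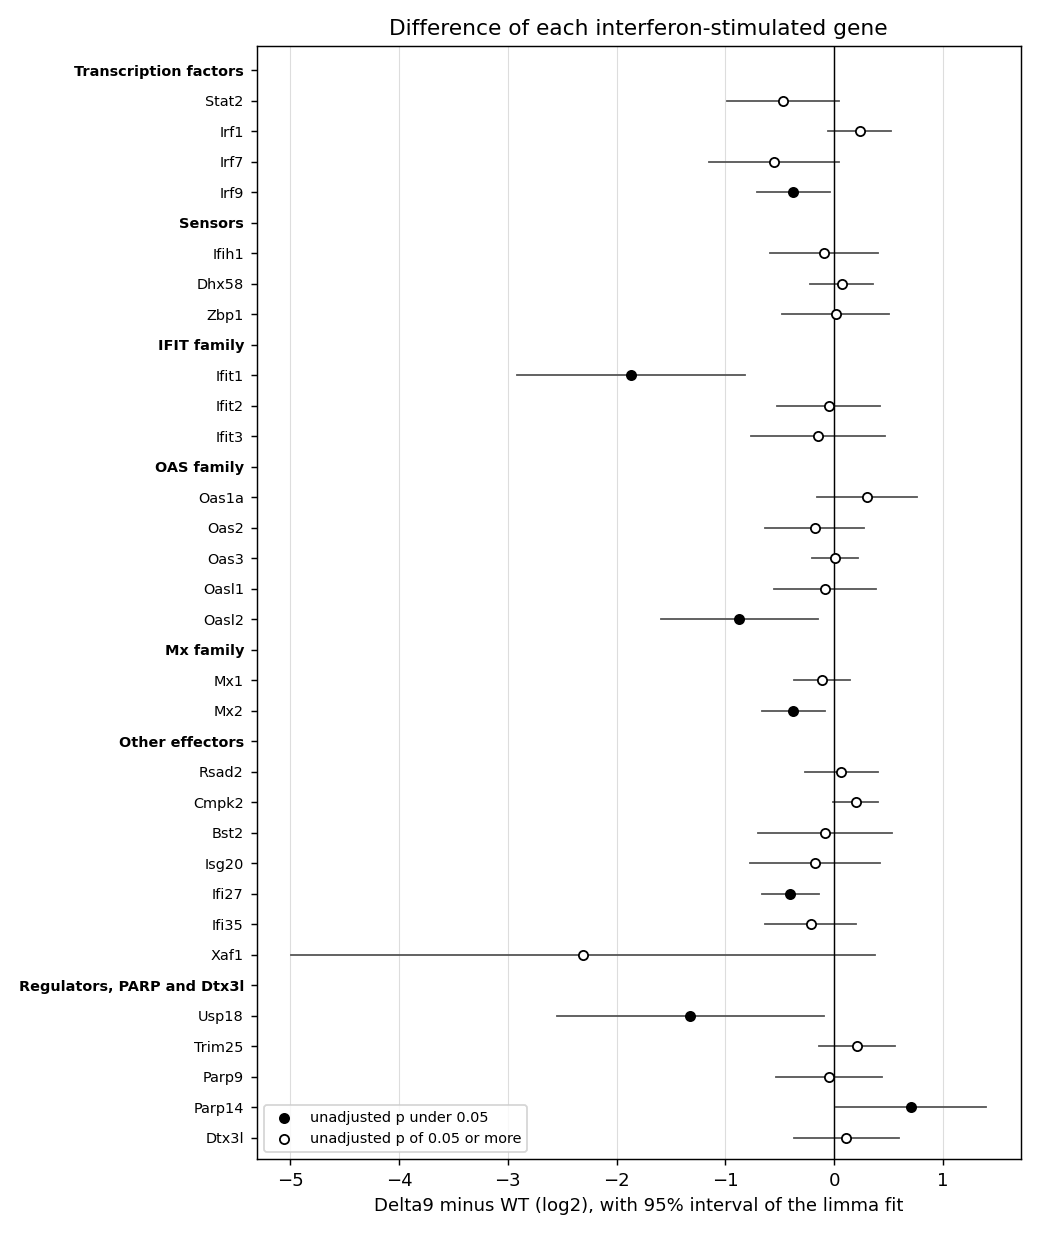
Difference of each of 29 interferon-stimulated genes (rows, by role), Delta9 minus WT in log2 units (x axis), with the 95% interval of the limma fit as a line. Filled points mark an unadjusted p under 0.05; the interval holds 0 for 22 genes, and Ifit1 at -1.87, Usp18 at -1.32 and Oasl2 at -0.87 lie farthest from 0 among the 7 filled points.

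Several genes thus rest on the choice of probe set. Of the 29 members, 18 had 1 probe set and 11 had several. Among these 11, the probe sets had the same sign for 6 (Stat2, Cmpk2, Ifi27, Ifi35, Trim25 and Dtx3l) and different signs for 5 (Dhx58, Zbp1, Rsad2, Parp14 and Xaf1). For Dhx58, Zbp1 and Rsad2 all differences lay between -0.13 and 0.07. For Ifit1, Usp18, Oasl2, Irf7, Irf9 and Mx2, no second probe set was there to compare.

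**Figure D3:**
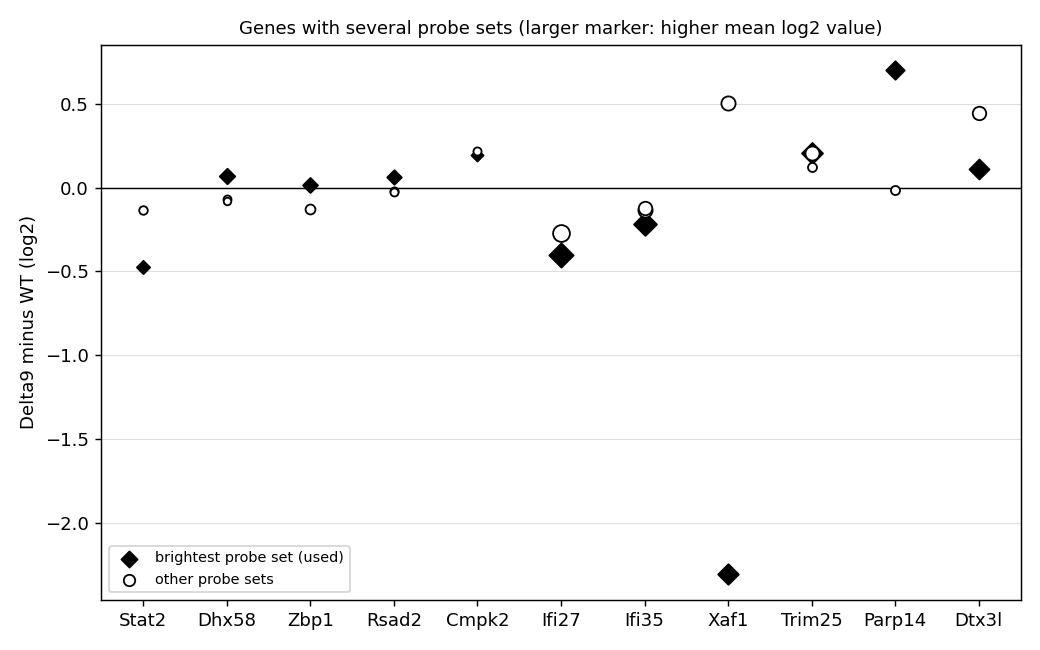
Difference, Delta9 minus WT in log2 units (y axis), of every probe set of the 11 interferon-stimulated genes that have several (x axis). Filled diamonds are the brightest probe set of each gene and open circles the others, with larger markers for a higher mean value; the probe sets of Xaf1 lie at -2.31 and 0.51, and those of Ifi27 both lie below 0.

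The members' values and counts varied with single samples. WT replicate 3 was the highest of the 6 arrays for 16 of the 29 members, as it was for 27.2% of all genes. Delta9 replicate 2 was the lowest for 11 of the 29, as it was for 15.7% of all genes. RNA quality signs differed on these arrays too. The 3' minus 5' difference of actin was 1.41 on WT replicate 3 and between 0.51 and 0.86 on the other arrays, and the mean of its 18S ribosomal RNA probe sets was 7.86, against 9.21 to 10.39 on the others. The 3' minus 5' difference of Gapdh was 0.25 and 0.23 on Delta9 replicates 1 and 2, and between 0.49 and 0.57 on the other arrays. Their part in the members' values was not tested. The mean of the members, as a deviation from the mean of the 6 arrays, was 0.01, -0.27 and -0.14 in Delta9, against 0.02, 0.06 and 0.32 in WT. Delta9 replicate 1 thus lay just under WT replicate 1. Without WT replicate 3, 2 members had an unadjusted p under 0.05, Ifit1 and Ifi27, in place of 7. Without WT replicate 2 there were 3 and without Delta9 replicate 2 there were 4. The share of all genes at that p was not counted with these samples left out. The lower counts can therefore not be read as particular to the members. Ifit1 had an unadjusted p under 0.05 in each of the 15 alternatives run, and Ifi27 in 14 of 15, the exception being the one that used its other probe set.

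The arrays also split by their spike-in signal. The mean of 24 poly-A spike-in probe sets was 5.20 on Delta9 replicate 3 and 4.85 on WT replicate 1, and between 5.64 and 6.10 on the other 4 arrays. Within those 4 arrays, the members' median difference was -0.26, with 22 of 29 lower in Delta9. In the remaining pair it was 0.07, with 12 of 29 lower. The medians over all genes were -0.02 and -0.00152 there, and the share of all genes with lower values was not counted in either part. The sign of the difference was the same in both parts for 17 of the 29 members. Ifit1 differed by -2.38 within the 4 arrays and by -0.85 in the pair, Usp18 by -1.66 and -0.65, Oasl2 by -1.20 and -0.22, and Irf7 by -0.82 and -0.04. The difference of Ifi27 was nearly the same in both parts, -0.42 and -0.37. The pair holds 1 sample a group and allows no test, and the part of this split in the members' values was not tested.

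Other genes of the pathway were counted from lists written for this comparison with earlier results in view. In each of the 6 lists, 0 genes passed the adjusted threshold (limma). Type I interferon itself was dim: Ifnb1, the interferon that fibroblasts make first, read 2.66 in Delta9 and 2.61 in WT on average, and the 8 measured ligands had a median difference of 0.00 with 0 at an unadjusted p under 0.05. The ligands of lowest p were Ifna1 with -0.31 (SE 0.15), Ifna11 with -0.15 (SE 0.09), Ifna5 with 0.10 (SE 0.10) and Ifng with 0.09 (SE 0.09). Among 15 receptors, kinases and STAT-pathway genes, 2 had higher values at an unadjusted p under 0.05 (4.54% of all genes) and 0 lower ones (6.06% of all genes), with a median of 0.09 that was 0.00196 without Delta9 replicate 3. Leaving out replicate 1 or 3 of Delta9, or replicate 2 or 3 of WT, left 0 genes of this list with such a p. The 2 genes were Il10rb, a receptor chain shared with interleukin 10, with 0.70 (SE 0.27), and Ifnar2, a chain of the type I receptor, with 0.32 (SE 0.14). The next by p were the receptor kinase Tyk2 with 0.24 (SE 0.16) and the phosphatase Ptpn6 with 0.43 (SE 0.31).

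Of 16 nucleic acid sensors and adaptors, 3 had higher values at an unadjusted p under 0.05 (4.54% of all genes) and 0 lower ones (6.06% of all genes). The median of the 16 was 0.16. The count was 1 without WT replicate 3 and 2 when replicate 2 of either group or replicate 1 of WT was left out, and the median was 0.05 without Delta9 replicate 3. Ikbke, a kinase that activates interferon regulatory factors, differed by 0.60 (SE 0.17), the adaptor Myd88 by 0.39 (SE 0.14) and Tlr7, an endosomal RNA receptor of immune cells, by 1.20 (SE 0.43). Ddx58, which encodes the RNA sensor RIG-I, differed by -0.32 (SE 0.16). The 9 genes of nucleic acid clearance and RNA editing had a median of 0.15. At an unadjusted p under 0.05, 1 was higher (4.54% of all genes) and 0 were lower (6.06% of all genes). The higher one was the RNase H2 subunit Rnaseh2a, at 0.43 (SE 0.15). The next by p were Samhd1, which hydrolyses nucleotides, with 0.26 (SE 0.14), the RNase H2 subunit Rnaseh2c with 0.34 (SE 0.19) and the lysosomal nuclease Dnase2a with -0.87 (SE 0.49). With single samples left out this median lay between 0.0565 and 0.25.

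The interferon-inducible GTPases, which attack the vacuoles of intracellular pathogens, held a gene whose values ran like those of Ifit1. Iigp1 read 3.75, 3.62 and 4.38 in Delta9, against 5.13, 4.93 and 5.77 in WT. The groups did not overlap, as for 9.99% of all genes in this direction. Delta9 replicate 3 and WT replicate 3 were the highest of their groups, as for Ifit1. Among all genes, Delta9 replicate 3 was the highest of its group for 34.6% and WT replicate 3 for 44.8%. The difference was -1.36 (SE 0.28), or 2.57-fold lower, with an adjusted p of 0.219 (limma). Gbp6 differed by -0.76 (SE 0.38), Ifi47 by 0.52 (SE 0.30) and Irgm1 by 0.33 (SE 0.25). Of the 9 measured GTPases, 1 had lower values at an unadjusted p under 0.05 (6.06% of all genes) and 0 had higher ones (4.54% of all genes). The median of the 9 was 0.06. It was negative when any sample other than WT replicate 3 was left out, down to -0.33 without WT replicate 1.

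In a list of 49 further interferon-stimulated genes, 8 had higher values in Delta9 at an unadjusted p under 0.05 (4.54% of all genes) and 2 had lower values (6.06% of all genes). With single samples left out, 7 to 11 had higher and 0 to 4 had lower values at that p. The median was 0.03, and 20 of the 49 had lower values (53.2% of all genes). The 4 of lowest p were all higher: Epsti1 with 0.70 (SE 0.13), Ifi30, a lysosomal thiol reductase of antigen-presenting cells, with 0.95 (SE 0.22), Sp100, a nuclear body protein, with 0.51 (SE 0.13), and Psmb9, a subunit of the immunoproteasome, with 0.76 (SE 0.22).

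Macrophage markers had higher mean values in Delta9, although their mean level on the arrays overlapped between the groups. All 20 had higher values in Delta9, as had 8516 of all 18193 genes. Of the 20 markers, 5 had an unadjusted p under 0.05 and 0 passed the adjusted threshold (limma), with a median of 1.08. Of all genes, 4.54% had higher values at an unadjusted p under 0.05. Without WT replicate 3 the median was 0.50, with 5 genes at that p, and without WT replicate 1 it was 1.64, with 19. The count was 1 to 3 without any other single sample. Their mean level was between 9.47 and 10.01 on the Delta9 arrays and between 7.41 and 9.58 on the WT arrays. WT replicate 3, on which 16 members were highest, had the lowest macrophage mean of the 6 arrays. In bulk RNA, fewer cells of a type and less RNA per cell cannot be told apart. The part of macrophage RNA in the members' values was not tested. Fibroblast markers had a mean level between 10.14 and 10.26 in Delta9 and between 10.48 and 10.69 in WT. All 12 had lower values in Delta9 (53.2% of all genes), with a median of -0.25. Lmna read 7.07, 6.95 and 6.11 in Delta9, against 8.35, 8.88 and 8.78 in WT, with a difference of -1.96 (SE 0.28, adjusted p 0.0899, limma). Where this probe set lies in the gene was not determined, so it does not check the labels.

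**Figure D4:**
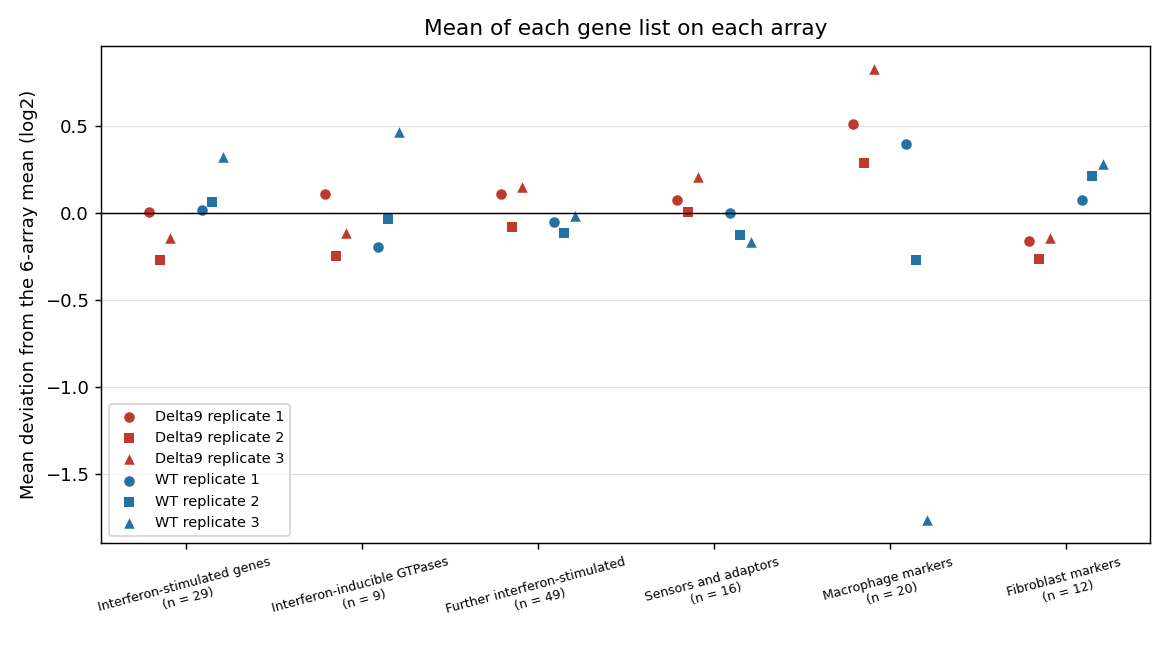
Mean deviation from the 6-array mean in log2 units (y axis) of 6 gene lists (x axis) on each Delta9 array (red, left) and WT array (blue, right). The interferon-stimulated genes lie between -0.27 and 0.01 in Delta9 and between 0.02 and 0.32 in WT, while the macrophage markers lie between 0.29 and 0.83 in Delta9 and between -1.77 and 0.40 in WT.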

How the data were processed

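Total RNA of 6 samples was hybridised to 1 Affymetrix array each, per the labels' protocols. The deposited values are 1 number per probe set, taken as log2 from their range; how the authors summarised and normalized them is not stated in the sources used. Of 45101 probe sets, 64 controls were left out of the tests, 34945 had 1 gene symbol in the platform annotation, 932 had several and 9160 are unnamed here. By Entrez identifier, 34741 matched RefSeq (GRCm38.p6).

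The members and lists were chosen with earlier results of these data known. Each of 18193 genes took its brightest probe set and was fitted with limma 3.58.1 in R 4.3.3 (lmFit, eBayes with trend), with Benjamini-Hochberg adjustment over all genes and a threshold of 0.05. The fit was checked on simulated data. No filter was used. Array medians ran from 3.36 to 3.43. Every member is named; values by sample are given for members with an unadjusted p under 0.05 or groups that do not overlap, and for the 6 of largest difference and the 3 of highest and 3 of lowest mean value; the second probe sets of Xaf1 and Dtx3l were added after their values were seen. From other pathway lists, up to 4 genes of lowest p are named, and Lmna and Ifnb1 in any case. Markers of dendritic, lymphoid, endothelial and keratinocyte cells were read too. Alternatives were quantile normalization, leaving out the dimmest 30% of genes, averaging all probe sets per gene, dropping the _x_at and _s_at types, fits with no trend or with robust variances, the replicate number as a block, the spike-in split, and leaving out each sample; counts in the other lists and medians of the macrophage and fibroblast markers were put through them after seeing the data. Figures used matplotlib 3.10.9.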

Additional observations from a re-analysis of the deposited data

How the results depend on the processing

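In all 15 alternatives, 0 members passed the adjusted threshold (limma). The adjusted p of Ifit1 ran from 0.0559 to 0.577 and its difference from -2.38 to -1.49. The count of members with an unadjusted p under 0.05, 7 as reported, was 5 to 9 with all samples kept or within the 4 arrays, and 2 to 8 with single samples left out. Shares of all genes at that p come from the reported fit and were not counted in the alternatives. This holds for the counts in the other lists too. The members' median was -0.26 among the 4 arrays with more spike-in signal and ran from -0.17 to -0.02 with single samples left out. Deviations of same-numbered samples had correlations of -0.40, 0.17 and -0.43. The highest between the groups, 0.59, was that of Delta9 replicate 3 and WT replicate 1, the arrays with less spike-in signal. With 3 samples a group this cannot tell whether the numbers pair the samples. With the replicate block, 0 of all genes passed and 5 members had an unadjusted p under 0.05. All genes past the threshold, 11 as reported, numbered 149 with the spike-in split as a block, 61 within the 4 arrays and 1 to 81 with single samples left out. Lmna passed with the mean of its probe sets (-1.55, adjusted p 0.0449), with the spike-in block (-1.96, 0.00559), within the 4 arrays (-1.83, 0.0136) and without Delta9 replicate 3 (-1.66, 0.0292), and ran from -2.14 to -1.66 with single samples left out. The sign was kept in all alternatives for 16 of the 29 members. It changed within the 4 arrays for Ifit2 (0.0328), Oas3 (-0.0263), Rsad2 (-0.0525), Zbp1 (-0.0770) and Dtx3l (-0.0893), and with the mean of probe sets for Zbp1 (-0.0566) and Dhx58 (-0.0256). With single samples left out, the range of the difference held 0 for Isg20 (-0.441 to 0.0709), Ifit2 (-0.17 to 0.10), Ifit3 (-0.338 to 0.0777), Ifih1 (-0.246 to 0.0670), Oas2 (-0.32 to 0.00341), Oas3 (-0.0322 to 0.0743), Oasl1 (-0.258 to 0.0197), Rsad2 (-0.00657 to 0.18), Bst2 (-0.38 to 0.13), Zbp1 (-0.10 to 0.23), Parp9 (-0.21 to 0.12) and Dtx3l (-0.10 to 0.27). The causes were not tested.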

Other observations

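Markers of other cell types were read on the same arrays. Endothelial markers had a median difference of 0.24 over 7 genes, with mean levels between 4.78 and 5.29 in Delta9 and between 4.65 and 5.01 in WT. Keratinocyte markers had a median of -0.11 over 7 genes and were dim, with mean levels between 3.19 and 3.25 in Delta9 and between 3.20 and 3.30 in WT. Lymphocyte markers had a median of -0.06 over 8 genes, with mean levels between 3.22 and 3.34 in Delta9 and between 3.20 and 3.39 in WT. Dendritic cell markers, a list that also holds Bst2, had a median of 0.00 over 10 genes. None of these 4 lists had a gene past the adjusted threshold (limma). At an unadjusted p under 0.05 there was 1 gene with higher values (4.54% of all genes), among the dendritic cell markers. With lower values there was also 1 (6.06% of all genes), among the lymphocyte markers. The gene with higher values was Irf8, a factor of macrophages and dendritic cells, which read 7.35, 7.19 and 8.19 in Delta9, against 6.97, 6.09 and 4.64 in WT.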
